A study of Mus musculus with 6 samples.

Results

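The S100 calcium-binding family was followed here through 10 genes of chromosome 3: S100a1, S100a4, S100a6, S100a8, S100a9, S100a10, S100a11, S100a13, S100a14 and S100a16. They were chosen by symbol, as S100 genes of the epidermal differentiation complex, and make up 10 of the 24016 genes kept from the deposited table. RNA was profiled in basal cells of the mouse esophageal epithelium, in 3 Krt15-positive libraries (CD29high GFP+) and 3 Krt15-negative libraries (CD29high GFP-). All the cells came from Krt15-CrePR1;R26mTomato/mGFP mice, which carry a Cre recombinase driven by the Krt15 promoter and active only with RU486, and a reporter that switches from membrane Tomato to membrane GFP on recombination. The mice of both groups had received 1 mg of RU486, and cells were sorted 24 h later. GFP thus marks recombination and not the level of Krt15, and a cell in which the Cre did not act stays GFP-negative whatever it expresses.

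S100 proteins are small calcium-binding proteins with a pair of EF-hand motifs, and most work as dimers that bind a partner protein when calcium rises. S100a10 is the exception, since it has lost calcium binding and instead holds annexin A2 in a complex at the membrane. Many S100 genes flank the epidermal differentiation complex, the gene cluster that also holds the loricrin, involucrin and small proline-rich genes of stratified epithelia. S100a8 and S100a9 together form calprotectin, an antimicrobial protein abundant in neutrophils and induced in keratinocytes by inflammation or injury.

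Values were FPKM, the authors' estimate of fragments scaled to transcript length and to the mapped fragments of the library. Levels of different genes are thus on one scale, but how well it holds for transcripts as short as the S100 ones was not tested. The basal keratins were present in every library, with Krt14 between 949 and 3199 FPKM, and so was Krt15, at 3349.8, 9692.5 and 2419.5 FPKM in the Krt15-positive libraries against 2350.2, 6784 and 3412 FPKM in the Krt15-negative ones. The suprabasal keratin Krt4 was also abundant, at 606 to 6295 FPKM. Depth, estimated from the value of a single fragment, was about 27500000 to 34000000 fragments in Krt15-positive libraries and about 29000000 to 41600000 fragments in Krt15-negative ones. The Krt15-negative replicate 1 library stood apart: 3247 genes reached 1 FPKM there, against 6906 to 9194 in the other 5. The differences of the S100 genes are therefore given with and without it. A listed 0 may be a failed estimate: 2 of 16 housekeeping genes had one in Krt15-negative replicate 1, and as many had one in Krt15-negative replicate 2.

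Most of the family was abundant: 7 of the 10 genes were at 84.7 FPKM or more in all 6 libraries, while S100a4 varied widely and S100a8 and S100a9 were at or near 0. Ordered by their mean over the libraries, the levels were 4395 FPKM for S100a11, 2397 for S100a16, 2087 for S100a6, 1739.5 for S100a10, 359 for S100a14, 342 for S100a1, 211 for S100a13, 25.8 for S100a4, 0.64 for S100a8 and 0.053 for S100a9. The ranges of neighbours in this order overlapped, except between S100a10 and S100a14 and between S100a13 and S100a4. S100a11 ranked between 9 and 19 among all genes in 5 libraries and at 101 in the Krt15-negative replicate 1 library. The 10 genes summed to 10559, 9661 and 9242 FPKM in the Krt15-positive libraries and to 14369, 11011 and 14502 FPKM in the Krt15-negative ones. That sum made up 1.26%, 1.35% and 1.31% of all FPKM in Krt15-positive libraries and 1.35%, 1.44% and 1.75% in Krt15-negative libraries.

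Along chromosome 3, in the gene order of RefSeq (assembly GRCm38.p6, used for order only), abundant and silent S100 genes alternated. S100a1, S100a13, S100a14 and S100a16 lie next to each other at one end, and all 4 were abundant. The neighbours S100a3 and S100a2 were listed at 0 in every library, S100a4 was intermediate, S100a5 was listed at 0, S100a6 was abundant, and S100a7a, S100a8, S100a9 and S100a7l2 (9130204L05Rik in the table) were near or at 0. S100a11 and S100a10 lie together at the far end, with 56 protein-coding genes between S100a9 and S100a11, and both were abundant. All 5 of the chromosome 3 S100 genes outside the 10 were listed at 0 in all 6 libraries.

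**Figure D1:**
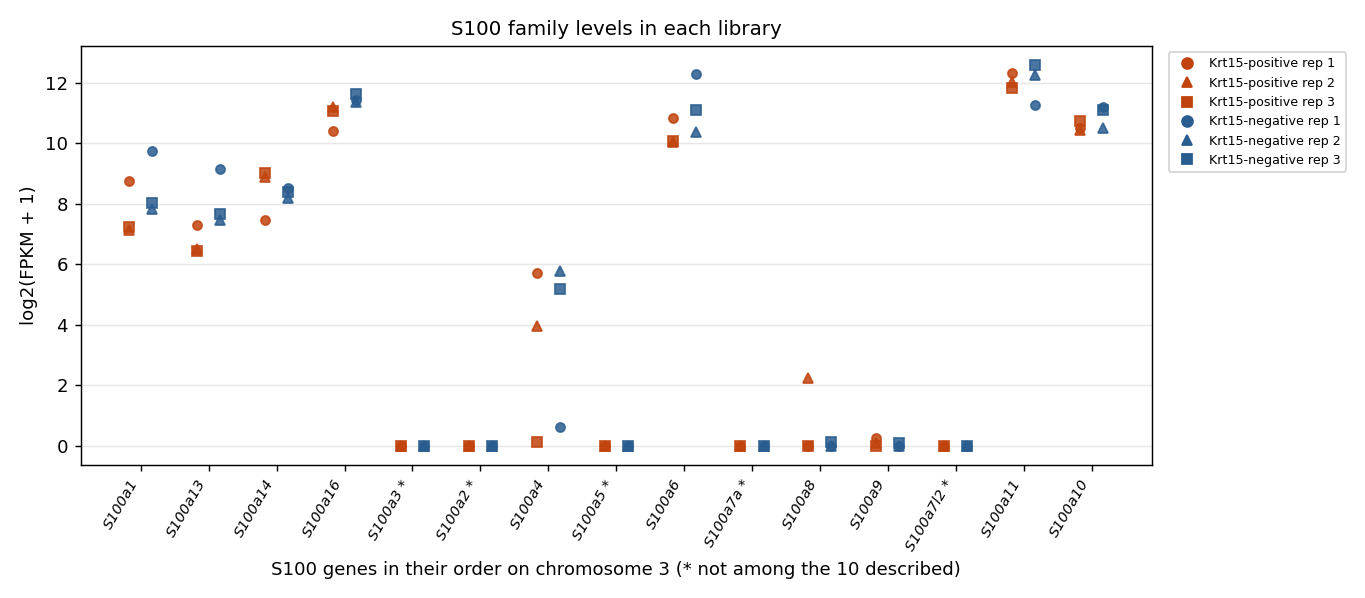
Levels of the 15 S100 genes of chromosome 3, in their order along it, as log2(FPKM + 1). Each point is 1 library (orange, Krt15-positive, and blue, Krt15-negative, with a marker for each replicate number), and an asterisk marks genes outside the 10 described. The 4 genes at the left, S100a6, and the 2 at the right stand well above 0 in all libraries, while S100a4 spreads from near 0 to 53.3 FPKM.

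Between the groups, no S100 gene passed the test, and most of the abundant ones had lower values in Krt15-positive cells. The test was limma on log2(FPKM + 1) over the 9423 genes whose mean reached 1 FPKM, with Benjamini-Hochberg adjustment and a threshold of 0.05. It called 0 of 9423 genes (0%), the smallest adjusted p being 0.40, and 0 of the 8 S100 genes that passed the filter. S100a8 and S100a9 did not pass it. Unadjusted limma p-values were below 0.05 for 370 genes (3.93%), of which those lower in Krt15-positive cells made up 0.743% of all tested, and for 1 of the 8 S100 genes, also lower. Weighting the libraries made limma call 8 genes, none of them an S100 gene. Whether the 3 libraries of a group stem from different animals is not in the labels, and the p-values reflect only how far these libraries spread, in part perhaps for technical reasons. In bulk RNA, fewer cells of a type and less RNA per cell cannot be told apart.

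Differences below 0 were seen for 6 of the 8 S100 genes tested, and their median was -0.60, where all genes tested had a median of 0.63 and 31.4% below 0. Without the Krt15-negative replicate 1 library, 7 of the 8 lay below 0 with a median of -0.39, where all genes had a median of 0.021 and 49% below 0. With the libraries rescaled, 5 of the 8 lay below 0 under upper-quartile scaling, 8 under median-of-ratios scaling and 5 under quantile normalization, with medians of all genes at 0.85, 0.43 and 0.038.

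Markers of other cells and layers also varied between the libraries, and their part in the S100 values was not tested. The 12 fibroblast markers summed to 189, 320 and 164 FPKM in Krt15-positive libraries, with 10, 8 and 5 of them listed at 0. In Krt15-negative libraries they summed to 393, 694 and 1179 FPKM, with 2, 3 and 0 at 0. The fibroblast sums thus did not overlap and were lower in Krt15-positive libraries. The differences of S100a13, S100a6, S100a1, S100a16, S100a4 and S100a10 had this direction, as had those of 31.4% of all genes tested. Of the 10 fibroblast markers tested, limma called 0, 9 had a difference below 0, and 8 were lower with no overlap (2.44% of all genes tested). Dcn and Gsn made up most of the fibroblast sum in every library, and nearly all of it in the Krt15-positive ones. Dcn, the 1 marker with a difference above 0 (0.07), was at 167, 176 and 71.1 FPKM in Krt15-positive libraries. In Krt15-negative libraries it was at 13.9, 267 and 457 FPKM, and the groups overlapped. Gsn was at 22.6, 141 and 92.3 FPKM in Krt15-positive libraries, against 210.5, 277 and 384 FPKM in Krt15-negative ones. The 10 suprabasal keratinocyte markers, genes of the layers above the basal one, summed to 8817, 23712 and 51340.0 FPKM in Krt15-positive libraries, against 36679, 31039 and 7494 FPKM in Krt15-negative ones. Most of that sum was Krtdap, a keratinocyte differentiation gene, in every library but Krt15-negative replicate 3, where it was listed at 0. Without Krtdap, left out after its values were seen, the other 9 summed to 1563, 10072 and 10053 FPKM in Krt15-positive libraries, against 3045, 8507 and 7494 FPKM in Krt15-negative ones, and the groups overlapped.

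The S100 transcripts are short, with median lengths of 417 to 915 bases over the annotated transcripts of each of the 8, and short abundant transcripts as a class lay lower in Krt15-positive libraries. Of 587 genes of at most 1000 bases with a mean of at least 100 FPKM, 71.2% had a difference below 0, and their median was -0.32. Without the Krt15-negative replicate 1 library these were 79.6% and -0.27. The share of S100 genes below 0 was close to that of this class. Genes of at most 1000 bases took up 70.6%, 56.2% and 62.45% of all FPKM in Krt15-positive libraries and 75.7%, 59.3% and 64.5% in Krt15-negative ones, and the part of transcript length in the S100 differences was not tested.

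**Figure D2:**
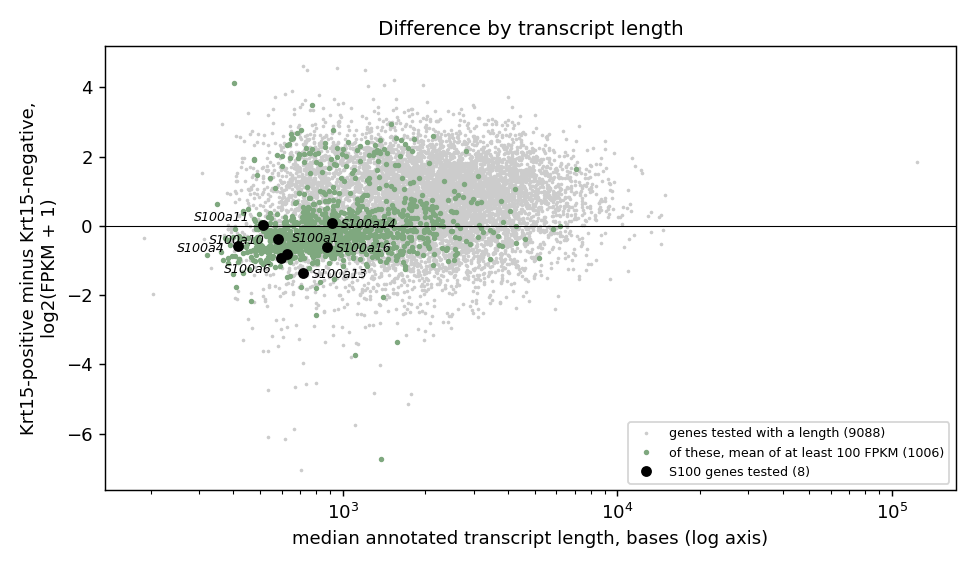
Difference between the groups (Krt15-positive minus Krt15-negative, log2(FPKM + 1)) against median annotated transcript length in bases on a log axis. Grey points are the 9088 tested genes with a length, green points those with a mean of at least 100 FPKM, and black points the 8 S100 genes. The S100 genes lie at the short end, between -1.36 and 0.09, within the band of the green points.

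**Figure D3:**
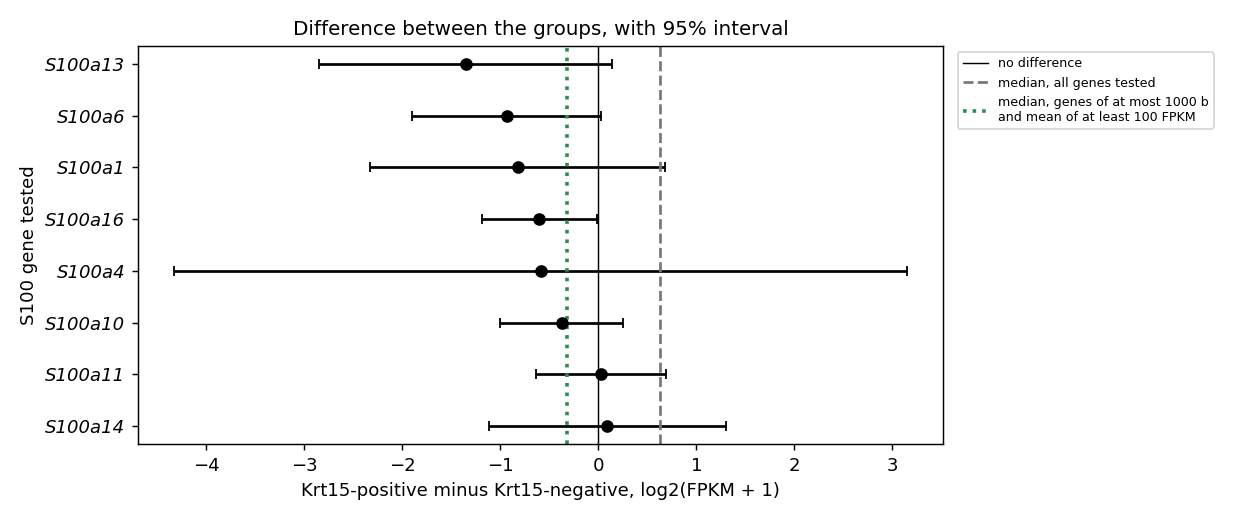
Difference between the groups for the 8 S100 genes tested, Krt15-positive minus Krt15-negative on the log2(FPKM + 1) scale, with its 95% interval from limma. The dashed grey line is the median of all genes tested (0.63) and the dotted green line that of short abundant genes (-0.32). Intervals of all genes but S100a16 (-1.19 to -0.013) include 0.

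S100a13, which is known for carrying FGF1 and interleukin-1 alpha out of cells without a signal peptide, had the lowest difference of the family. Its level was 154, 89.7 and 84.7 FPKM in the Krt15-positive libraries, against 563, 177 and 201 FPKM in the Krt15-negative ones. The groups did not overlap, and the Krt15-negative replicate 1 library was far above the other 5. The difference was -1.36 (SE 0.68, 95% CI -2.85 to 0.14, limma adjusted p = 0.79), and -0.83 without that library. Groups that did not overlap in this direction were found for 2.44% of all genes tested (12.3% of the short abundant class) and for 2 of the 8 S100 genes, the other being S100a16. Without that library the same 2 S100 genes were lower with no overlap, as were 8.95% of all genes tested.

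S100a1, a regulator of calcium handling best known from heart muscle, was at 434, 140 and 147 FPKM in Krt15-positive libraries, against 846, 227 and 259 FPKM in Krt15-negative ones. The groups overlapped only through Krt15-positive replicate 1, and in each group the replicate 1 library stood well above the others. The difference was -0.82 (SE 0.69, 95% CI -2.33 to 0.68, limma adjusted p = 0.79), and -0.22 without the Krt15-negative replicate 1 library. S100a13 over S100a1, a ratio formed after the values were seen, was 0.36, 0.64 and 0.57 in Krt15-positive libraries and 0.66, 0.78 and 0.77 in Krt15-negative ones. S100a13 thus stayed below S100a1 in every library, by the most in the Krt15-positive replicate 1 library.

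S100a1 and S100a13 lie head to head, and the promoter window of one is in large part that of the other. RefSeq windows run from 250 bases before to 50 after a gene's start (build GRCm38.p6, used for sequence only, since the authors' build was mm9), and 8 of the 10 genes had one, all but S100a10 and S100a14. The starts of S100a1 and S100a13 are 105 bases apart on opposite strands, and their windows share 204 bases. The whole S100a13 span of RefSeq begins further upstream than this start and overlaps the S100a1 span by 98 bases, and because the library chemistry does not mark strand, reads from the stretch in common cannot be told apart. The S100a1 window (chr3:90514281-90514580, minus strand) is shown because it holds both starts, with the bases shared with the S100a13 window in capitals.
S100a1: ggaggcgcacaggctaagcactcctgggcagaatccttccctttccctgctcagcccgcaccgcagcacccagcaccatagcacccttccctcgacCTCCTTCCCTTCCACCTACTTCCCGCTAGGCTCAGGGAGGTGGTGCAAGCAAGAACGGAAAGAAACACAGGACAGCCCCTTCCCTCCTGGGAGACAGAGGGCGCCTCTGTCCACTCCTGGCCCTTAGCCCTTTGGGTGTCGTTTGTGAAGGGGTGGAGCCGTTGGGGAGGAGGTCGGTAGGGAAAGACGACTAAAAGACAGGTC

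S100a16, a widely expressed member with a single working calcium site, was the other gene whose groups did not overlap. It was at 1338, 2343 and 2114 FPKM in Krt15-positive libraries, against 2781, 2618 and 3187 FPKM in Krt15-negative ones. The Krt15-positive replicate 1 library was the lowest, and the gap between the groups lay between 2343 and 2618 FPKM. The difference was -0.60 (SE 0.27, 95% CI -1.19 to -0.013, limma adjusted p = 0.79), the 1 unadjusted p below 0.05 in the family (0.046). Leaving out Krt15-negative replicate 1 gave -0.62, and the value was -0.13 with quantile normalization.

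S100a14, the neighbour of S100a16 and an epithelial member, showed no such order. It was at 176, 467 and 521 FPKM in Krt15-positive libraries, against 367, 290 and 332 FPKM in Krt15-negative ones. Krt15-positive replicates 2 and 3 were the highest of the 6 libraries and replicate 1 the lowest. The difference was 0.09 (SE 0.55, 95% CI -1.12 to 1.30, limma adjusted p = 0.97), with the sign changed, at -0.40, under median-of-ratios scaling. It was 0.17 without Krt15-negative replicate 1.

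S100a6, or calcyclin, a marker of proliferating and activated cells that binds the protein of Cacybp, was at 1830.1, 1059 and 1078 FPKM in Krt15-positive libraries. In Krt15-negative libraries it was at 5042, 1330.3 and 2183 FPKM. The groups overlapped only through the Krt15-positive replicate 1 library, and the Krt15-negative replicate 1 library was the highest of the 6. The difference was -0.94 (SE 0.44, 95% CI -1.90 to 0.027, limma adjusted p = 0.79), and -0.41 without that library. S100a6 made up 17.3%, 11% and 11.7% of the summed FPKM of the 10 genes in Krt15-positive libraries, and 35.1%, 12.1% and 15.1% in Krt15-negative ones.

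S100a10, the annexin A2 partner, was the steadiest member, with its highest library 1.69 times its lowest. It was at 1436, 1375 and 1689.7 FPKM in Krt15-positive libraries, against 2324.5, 1447 and 2165 FPKM in Krt15-negative ones. Krt15-negative replicate 2 lay within the Krt15-positive range, and the other Krt15-negative libraries lay above it. The difference was -0.38 (SE 0.29, 95% CI -1.001 to 0.25, limma adjusted p = 0.79), and -0.24 without Krt15-negative replicate 1. Its sign depended on the scaling, at 0.022 after upper-quartile scaling and 0.026 after quantile normalization. Anxa2 was at 889, 1990.0 and 963 FPKM in Krt15-positive libraries, against 905, 1925 and 1357 FPKM in Krt15-negative ones. The ratio of S100a10 to Anxa2 was 1.61, 0.69 and 1.75 in Krt15-positive and 2.57, 0.75 and 1.60 in Krt15-negative libraries, below 1 in both replicate 2 libraries.

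S100a11, or calgizzarin, a partner of annexin A1 with a role in growth arrest of human keratinocytes, was the most abundant member by its mean. It was at 5139.5, 4169.7 and 3607 FPKM in Krt15-positive libraries, against 2445.5, 4868 and 6139 FPKM in Krt15-negative ones. The Krt15-negative libraries held both the highest and the lowest value. The difference was 0.03 (SE 0.30, 95% CI -0.64 to 0.69, limma adjusted p = 0.98). The sign changed, to -0.36, when Krt15-negative replicate 1 was left out, and to -0.47 under median-of-ratios scaling. RefSeq lists a pseudogene, S100a11-ps, so the authors' counting could have split some reads of S100a11.

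Anxa1, the annexin partner of S100a11, was at 1951, 1596 and 1783 FPKM in Krt15-positive libraries, against 777, 1809.5 and 2183 FPKM in Krt15-negative ones, and was lowest in the same library as S100a11. The ratio of S100a11 to Anxa1 was 2.63, 2.61 and 2.02 in Krt15-positive libraries and 3.15, 2.69 and 2.81 in Krt15-negative ones. The groups did not overlap in this ratio, by a gap from 2.63 to 2.69, although they overlapped in both genes. The ratio was not tested, and how often other pairs of genes separate in this way was not computed. The ratio ran over a narrower range than S100a11 itself, whose highest library was 2.51 times its lowest.

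**Figure D4:**
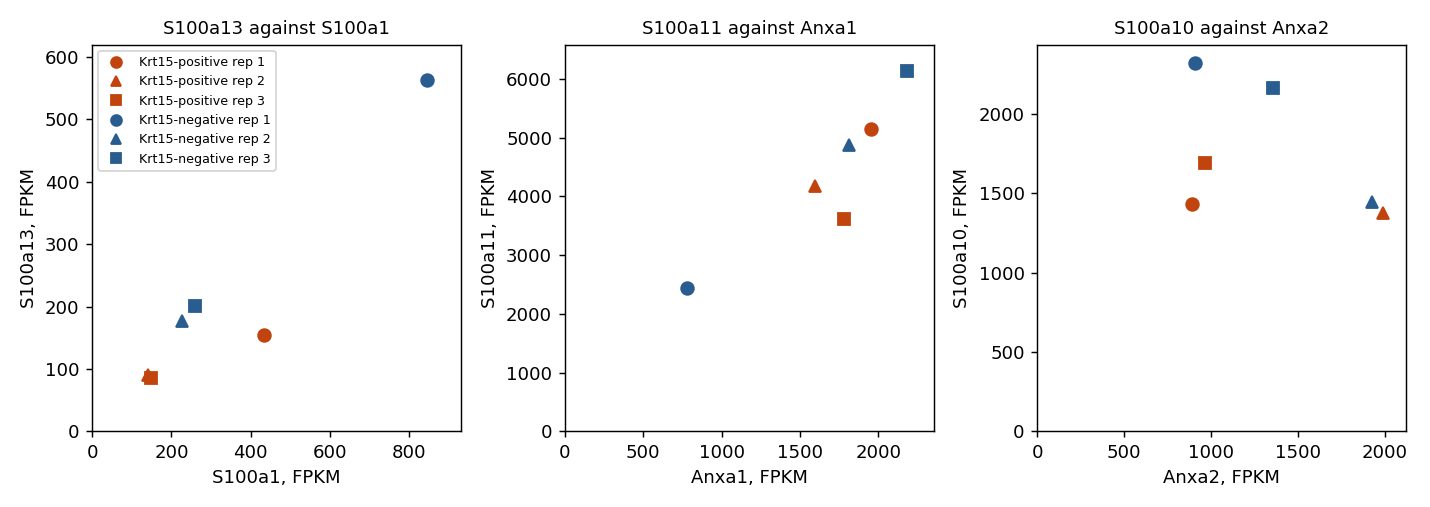
S100a13 against S100a1, S100a11 against Anxa1 and S100a10 against Anxa2, in FPKM on axes that start at 0. Each point is 1 library (orange, Krt15-positive, and blue, Krt15-negative, with a marker for each replicate number). S100a11 and Anxa1 are both lowest in the Krt15-negative replicate 1 library (2445.5 and 777 FPKM), where S100a1 and S100a13 are both highest.

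The S100a11 window (chr3:93520246-93520545, plus strand) is shown because it was the richest in the motifs searched. These were TGANTCA (N for any base) for the AP-1 site, TATAAA for the TATA box and GGGCGG for the GC box, on both strands. Their matches, in capitals, did not overlap. AP-1 is a dimer of Jun and Fos proteins and a regulator of many keratinocyte genes. The S100a11 window held 2 AP-1 matches and 3 GC boxes, where 7.81% and 35.7% of all 32851 RefSeq windows of this length held at least 1.
S100a11: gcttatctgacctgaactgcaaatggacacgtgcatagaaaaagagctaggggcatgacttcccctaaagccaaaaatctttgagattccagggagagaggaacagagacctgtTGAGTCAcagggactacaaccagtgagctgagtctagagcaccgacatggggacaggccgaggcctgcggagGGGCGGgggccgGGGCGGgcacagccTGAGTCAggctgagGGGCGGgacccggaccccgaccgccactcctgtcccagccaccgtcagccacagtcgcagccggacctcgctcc

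S100a4, a myosin-binding member known from fibroblasts, macrophages and motile cells, varied the most of the 8 tested, its highest library being 607 times its lowest. It was at 51.2, 14.6 and 0.088 FPKM in Krt15-positive libraries, against 0.54, 53.3 and 35.1 FPKM in Krt15-negative ones. Each group thus held libraries at 14.6 FPKM or more and 1 library below 1 FPKM. The difference was -0.59 (SE 1.71, 95% CI -4.33 to 3.15, limma adjusted p = 0.94), and leaving out single libraries moved it between -2.20 (without Krt15-negative replicate 1) and 0.98 (without Krt15-positive replicate 3).

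The sum of the fibroblast markers, most of it Dcn and Gsn, went with S100a4 in some libraries and not in others. A relation between the sum and S100a4 was not tested. The sum and S100a4 were both lowest in Krt15-positive replicate 3, at 164 and 0.088 FPKM. The highest fibroblast sums, 694 and 1179 FPKM in Krt15-negative replicates 2 and 3, came with S100a4 at 53.3 and 35.1 FPKM. In Krt15-positive replicates 1 and 2 the sum was 189 and 320 FPKM, with S100a4 at 51.2 and 14.6 FPKM. In Krt15-negative replicate 1 it was 393 FPKM, with S100a4 at 0.54 FPKM. Markers of macrophages and monocytes summed to 7281.5, 127.5 and 56 FPKM in Krt15-positive libraries and to 600, 247 and 532 FPKM in Krt15-negative ones, with 7, 2 and 8 of 12 at 0 in Krt15-positive and 5, 8 and 3 in Krt15-negative libraries. The lysozyme gene Lyz2 alone gave 7279 FPKM of the Krt15-positive replicate 1 sum, and the macrophage receptor gene Adgre1 (Emr1 in the table) was at 0 in all 6. Of the 7 macrophage markers tested, limma called 0, and 6 had a difference below 0, with Lyz2 the 1 above. Their median difference was -1.82. Of these 7, Tyrobp alone was lower with no overlap, as were 2.44% of all genes tested. It was at 0, 20.2 and 27.6 FPKM in Krt15-positive libraries, against 203, 124 and 31 FPKM in Krt15-negative ones. The T and NK cell markers with a row summed to 0, 0 and 0.18 FPKM in Krt15-positive libraries and to 0, 515 and 0.72 FPKM in Krt15-negative ones.

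The calprotectin genes were at or near 0 in both groups. S100a8 was listed at 0, 3.77 and 0 FPKM in Krt15-positive libraries, against 0, 0 and 0.095 FPKM in Krt15-negative ones. S100a9 was listed at 0.18, 0.073 and 0 FPKM in Krt15-positive libraries, against 0, 0 and 0.063 FPKM in Krt15-negative ones. At the estimated depths the S100a8 value in Krt15-positive replicate 2 came to about 62.3 fragments, and every other value of either gene above 0 to about 1.3 to 2.6 fragments. These fragment numbers are approximations that rest on annotated lengths.

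Defining neutrophil genes were listed at 0 as well. Of 10 neutrophil markers with a row, Camp, Mpo, Elane and Mmp8 were at 0 in all 6 libraries, and the 10 summed to 1869, 2.84 and 0.039 FPKM in Krt15-positive libraries, against 196, 0.0078 and 10.6 FPKM in Krt15-negative ones. Ltf, which encodes lactoferrin and is also made by gland cells, was at 1869, 0 and 0.036 FPKM in Krt15-positive libraries, against 195, 0 and 0 FPKM in Krt15-negative ones. In the library with the most Ltf, S100a8 was listed at 0 and S100a9 at 0.18 FPKM. Lcn2, also on the list, was at 0, 2.77 and 0 FPKM in Krt15-positive libraries, against 0, 0 and 10.3 FPKM in Krt15-negative ones. Like S100a8, it was above 0 only in Krt15-positive replicate 2 and Krt15-negative replicate 3, and a relation between them was not tested.

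TATAAA was found in the windows of S100a4, S100a8 and S100a9, the 3 members of lowest level. It was in none of the other windows of the family, which S100a10 and S100a14 lack, and in 13.6% of all RefSeq windows. The windows with TATAAA were picked for that difference after levels and matches were seen. They are shown on strands plus, plus and minus, at chr3:90603520-90603819, chr3:90668821-90669120 and chr3:90695672-90695971, with all motif matches in capitals. A match is a string of letters in this window, and no factor was measured. A relation of TATAAA to level was not tested.
S100a4: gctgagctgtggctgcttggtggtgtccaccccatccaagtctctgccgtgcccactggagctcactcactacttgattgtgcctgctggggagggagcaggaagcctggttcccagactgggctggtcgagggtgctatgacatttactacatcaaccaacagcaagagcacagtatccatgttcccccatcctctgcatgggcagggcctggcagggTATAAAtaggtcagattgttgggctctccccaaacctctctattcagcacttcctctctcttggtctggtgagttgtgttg
S100a8: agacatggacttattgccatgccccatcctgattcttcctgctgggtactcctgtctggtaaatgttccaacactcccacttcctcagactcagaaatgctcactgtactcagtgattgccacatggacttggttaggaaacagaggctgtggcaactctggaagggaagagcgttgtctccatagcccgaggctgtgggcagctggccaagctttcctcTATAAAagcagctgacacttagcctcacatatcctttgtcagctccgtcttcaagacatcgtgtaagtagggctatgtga
S100a9: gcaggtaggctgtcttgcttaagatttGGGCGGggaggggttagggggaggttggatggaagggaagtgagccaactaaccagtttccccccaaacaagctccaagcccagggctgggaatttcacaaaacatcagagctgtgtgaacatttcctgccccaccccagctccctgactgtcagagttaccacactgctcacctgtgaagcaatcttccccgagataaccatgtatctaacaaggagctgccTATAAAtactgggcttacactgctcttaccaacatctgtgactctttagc

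Outside the 10, S100 genes and their fused-type relatives were mostly silent. Of 7 further S100 genes, S100a3, S100a5, S100a7a, S100a7l2, S100b and S100z were listed at 0 in all 6 libraries. S100b is a gene of Schwann cells and melanocytes. S100g, the calbindin-D9k gene of the X chromosome, was at 50.4, 4.43 and 0 FPKM in Krt15-positive libraries, against 185, 0 and 0 FPKM in Krt15-negative ones. The fused-type genes, which join an S100 domain to long repeats and serve the cornified layer, had 6 of 7 with a row. Crnn, Flg2, Hrnr, Rptn, Tchh and Tchhl1 never exceeded 0.78 FPKM, and none passed the filter.

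No gene of the S100 binding partners passed the test. Of 15 binding partners, 11 passed the filter, 0 were called higher and 0 lower by limma, with 5 below 0 and 6 above 0 and a median difference of 0.23, against 0.63 for all genes. Myh9, the nonmuscle myosin heavy chain that S100a4 binds, was at 3.73, 2.44 and 3.80 FPKM in Krt15-positive libraries, against 1.05, 1.09 and 0.34 FPKM in Krt15-negative ones. These ranges did not overlap, as was so in this direction for 8.85% of all genes tested, and the difference was 1.26 (SE 0.94, limma adjusted p = 0.79). Cacybp was at 102, 77.7 and 115 FPKM in Krt15-positive libraries, against 74.4, 237 and 128 FPKM in Krt15-negative ones.

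Of 9 receptor and co-receptor genes, 6 passed the filter, and limma called 0 higher and 0 lower, with 5 above 0 and 1 below. Ager, the receptor for advanced glycation end products that binds many S100 proteins, was listed at 0 in all 6 libraries. Tlr4, the receptor for calprotectin, was at 3.25, 1.15 and 0 FPKM in Krt15-positive libraries, against 0, 0.098 and 0 FPKM in Krt15-negative ones. Bsg, or basigin, which binds S100a9, was the most abundant of them, at 723, 868 and 726 FPKM in Krt15-positive libraries, against 358, 799 and 815 FPKM in Krt15-negative ones.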

How the data were processed

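The deposited table held FPKM per gene and library, estimated by the authors. The submitters' processing notes name mm9, Cufflinks 2.2.1, STAR 2.5 and DESeq2 without saying what each did. A SMART-Seq v4 kit turned sorted cells into cDNA with no RNA extraction, per the labels' protocols. Which annotation was used was not given in the sources used here, nor were filters on reads or a strand setting. Of 24043 rows, 27 symbols turned into dates were left out. All 6 value columns carried sample names of the labels.

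Values were analysed as log2(FPKM + 1), which understates changes of low genes, with limma 3.58.1 in R 4.3.3 (mean-variance trend, group as the only term, 2-sided). Genes needed a mean of at least 1 FPKM. The fit was tested on simulated data. Depth was estimated in 2172 single-transcript genes of at least 1500 bases, where FPKM times kilobases piles up at the value of 1 fragment. No counting intervals are given. Transcript lengths came from GENCODE and covered 96.4% of genes tested. Of 152 list symbols, 2 matched through a synonym and 4 had no row.

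All 10 members are named, and other genes come from lists of relatives, partners, receptors and markers, of which those under a mean of 1 FPKM were picked for naming after their values were seen. Members and lists were chosen with earlier results of these data known. Alternatives covered pseudocounts, filters, 3 scalings, library weights, a replicate block and left-out libraries.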

Additional observations from a re-analysis of the deposited data

How the results depend on the processing

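No S100 gene was called under any of the 18 alternatives. The differences of S100a1, S100a6, S100a13 and S100a16 stayed below 0 in all 18, over -1.35 to -0.22, -1.43 to -0.41, -1.85 to -0.83 and -1.10 to -0.13. Library weights called 8 of 9423 genes. The other differences changed sign in places, and the cause was not tested. That of S100a10 turned to 0.022 with upper-quartile scaling (over tested genes above 0) and 0.026 with quantile normalization. That of S100a11 turned to -0.47 with median-of-ratios scaling and -0.36 with library weights, and ran from -0.50 to 0.42 when libraries were left out. That of S100a14 turned to -0.40 with median-of-ratios scaling and -8.3e-04 with library weights, and ran from -0.20 to 0.67. That of S100a4 ran from -3.42 to 1.64 when libraries were left out. Between 5 and 7 of the 8 S100 genes tested lay below 0 when libraries were left out, and between 2 and 6 were lower with no overlap, which fewer libraries make more common among all genes too. There were 4 without Krt15-negative replicate 2, Krt15-positive replicate 1 or both replicate 2 libraries (6.12%, 3.89% and 9.18% of all genes) and 6 without both replicate 1 libraries (12.1%). In addition, 1 was higher with no overlap without Krt15-positive replicate 1 (16% of all genes) and 1 without both replicate 1 libraries (18.9%). The median of all genes was 0.85 with upper-quartile scaling, 0.43 with median-of-ratios scaling, 0.038 with quantile normalization and 0.021 without Krt15-negative replicate 1. The 8 S100 genes lay below that median in the main comparison and under upper-quartile and median-of-ratios scaling, and 6 did with quantile normalization.

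The same-numbered libraries of both groups share a code in their sample names, which the labels do not explain. The numbers were not taken to pair the libraries: same-numbered libraries' deviations from their group means correlated at 0.13, 0.17 and 0.0089 for numbers 1 to 3, and not every library correlated best with its own number. The check cannot exclude pairing, since 0.13 and 0.17 were also the highest correlations between any libraries of different groups. With a replicate block limma called 0 genes (479 at an unadjusted p below 0.05) and 0 S100 genes, whose lowest adjusted p was 0.74. Between libraries of the same number, S100a1, S100a6, S100a10, S100a13 and S100a16 were each lower in the Krt15-positive library in 3 of 3. S100a4 and S100a11 were lower in 2 of 3 and S100a14 in 1 of 3. The share of all genes tested, or of short abundant genes, that were lower in 3 of 3 was not computed. These counts therefore cannot be read as particular to the S100 genes. The values above 0 of S100a8 and S100a9, and those of S100a4 in the libraries below 1 FPKM, rest on few fragments. The exception is S100a8 in Krt15-positive replicate 2, at about 62.3 fragments.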

Other observations

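S100g and Ltf, set side by side after their values were seen, were both highest in the replicate 1 libraries of the 2 groups. S100g was at 50.4 FPKM in Krt15-positive replicate 1 and 185 FPKM in Krt15-negative replicate 1, with no more than 4.43 FPKM in the other 4 libraries. Ltf was at 1869 FPKM and 195 FPKM in these libraries with no more than 0.036 FPKM in the others. The ratio of S100a16 to S100a14, formed after the values were seen, was 7.59, 5.02 and 4.06 in Krt15-positive libraries and 7.59, 9.02 and 9.60 in Krt15-negative ones.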
